A study of Homo sapiens with 9 samples.

Results

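The genes described here are 9 members of the NRF2-KEAP1 axis, taken by symbol and matched to Ensembl identifiers in the table of read counts. They are the transcription factor NRF2 (NFE2L2), its repressor KEAP1, and the antioxidant target genes NQO1, HMOX1, GCLC, GCLM, TXNRD1, SRXN1 and SLC7A11. All 9 were found among the 60664 genes of the table, and all 9 were among the 17207 genes that passed the filter on low counts and were tested. NRF2 is a transcription factor that KEAP1 holds in the cytoplasm and presents to the CUL3 ubiquitin ligase for degradation. Oxidants and electrophiles modify KEAP1, and the autophagy receptor p62 (SQSTM1) can bind it in place of NRF2, and in both cases NRF2 escapes degradation, enters the nucleus and pairs with a small MAF protein on antioxidant response elements. In liver this system controls glutathione synthesis, the thioredoxin system and the detoxification of quinones, and it is mainly set by the stability of the NRF2 protein, which these libraries do not measure.

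The libraries were made from mRNA of 3 lines of Huh-7, a cell line from a human hepatocellular carcinoma, that were grown untreated in complete medium. The WT line was not edited in the vault RNA genes. The vtRNA1-1 KO line (1-1 KO) lacks VTRNA1-1 and the vtRNA1-2 KO line (1-2 KO) lacks VTRNA1-2, each by CRISPR/Cas9 editing, and vault RNAs are short noncoding RNAs made by RNA polymerase III. WT and 1-1 KO cells came from another laboratory and 1-2 KO was derived from these WT cells as 1 clone grown from a single cell. Each knockout was thus represented by 1 line, and an effect of the lost vtRNA cannot be told apart from a difference between lines. Each line had 3 libraries, and p-values therefore measure the spread between extractions of 1 line.

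The libraries held from 32384469 to 41782387 counts each. VTRNA1-1 had 1 count in 1 WT library and VTRNA1-2 had 0 counts in all 9 libraries, so that these mRNA libraries cannot check either knockout. All 10 hepatocyte markers examined were above 1 CPM in every library, with a sum between 15060 and 16000 CPM in WT, 31230 and 32170 CPM in 1-1 KO, and 21250 and 23270 CPM in 1-2 KO. The sum of 10 markers of blood, endothelial, stromal and muscle cells was between 137.7 and 139.2 CPM in WT, 127.5 and 132 CPM in 1-1 KO, and 46.32 and 48.44 CPM in 1-2 KO, and 1 of these markers was at 3 counts or fewer in each line. The sums follow the most abundant markers. The fall in 1-2 KO was mostly that of LYZ (113 CPM in WT, 19.2 CPM in 1-2 KO), while 5 of the 8 tested markers of other cells were called higher and 2 lower. Of the hepatocyte markers, 4 were called higher and 3 lower in 1-2 KO (median log2 fold change 0.05) and 8 higher and 1 lower in 1-1 KO (0.48). In 1-2 KO, 70% of the hepatocyte markers and 87.5% of the tested other markers were called, against 54.4% of all tested genes. In 1-1 KO these shares were 90% and 62.5%, against 63.4%. CPM are counts scaled by edgeR's TMM-normalized library sizes to 1e+06 per library. The part of these marker shifts in the results was not tested, and in such bulk libraries fewer cells that express a gene and less RNA per cell cannot be told apart.

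1-2 KO replicate 1 stood apart from the other 1-2 KO libraries, and WT replicate 3 from the other WT libraries. Of 13351 genes, 2.52% and 2.61% lay over 1.5-fold from the mean of the other libraries of the line in these, against 0.734% to 2.16% in the other libraries. The chi-square per degree of freedom between libraries of a line was 15.1 and 16.1 for the pairs with 1-2 KO replicate 1, and 2.67 for the other 1-2 KO pair. In WT it was 10.4 and 6.41 for the pairs with replicate 3 and 5.03 for the other pair, and within 1-1 KO between 2.07 and 3.46. Among the 9 genes SRXN1 differed in 1-2 KO replicate 1, at 1.86 times the mean of the other 1-2 KO libraries. The other 8 lay between 0.88 and 1.1 times that mean. In WT replicate 3 SRXN1 was at 1.41 times the mean of the other WT libraries. SQSTM1 was at 1.28 times the mean in 1-2 KO replicate 1. FTH1, the ferritin heavy chain, an NRF2 target that was named after its values were seen, was at 1863 CPM in this library against 384 and 398 CPM in the others, and FTL, the light chain, also named after its values were seen, was at 0.951 times the mean. FTH1 has many processed pseudogenes, so that its counts are uncertain. The number of the 9 genes that passed the test was the same with and without 1-2 KO replicate 1 in each comparison.

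**Figure D1:**
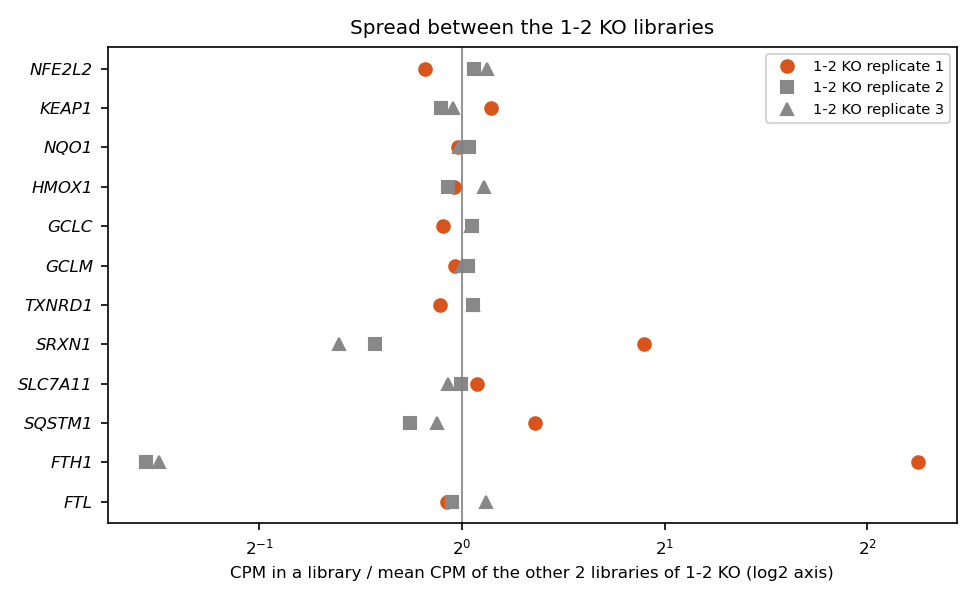
CPM of each 1-2 KO library divided by the mean CPM of the other 2 libraries of the line, on a log2 axis, for the 9 genes of the axis, SQSTM1, FTH1 and FTL; orange circles are replicate 1, grey squares and triangles replicates 2 and 3. SRXN1 (1.86) and FTH1 (4.77) lay far to the right in replicate 1, and the other 8 genes of the axis lay close to 1.

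The antioxidant response element is the DNA sequence through which NRF2 acts, and its strong form contains the letters TGACTCAGC, which include the AP-1 element TGACTCA. In 5000 bases before the start of the canonical transcript (hg38, GENCODE 44, both strands), TGACTCAGC occurred in 3 of the 9 genes and in 6.55% of 13656 protein-coding genes tested. The looser letters TGACNNNGC occurred in 7 of the 9 genes and in 84.2% of all windows. The 3 sites are shown because they carry the element in genes that are read out below. The capitals mark the element, each line runs 5′ to 3′ on the strand that carries these letters, and a match is not evidence of binding.
NQO1, chr16:69726997-69727025, minus strand, 455 bases before the start: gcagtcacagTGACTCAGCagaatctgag
GCLC, chr6:53548239-53548267, plus strand, 3156 bases before the start: cgcctccccgTGACTCAGCgctttgtgcg
HMOX1, chr22:35377146-35377174, minus strand, 3940 bases before the start: gaggcactggTGACTCAGCaaaatctagc

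All 3 genes were lower in 1-2 KO compared to WT, where 26.2% of all tested genes were called lower. Their log2 fold changes there were -0.85 for NQO1, -0.59 for GCLC and -0.18 for HMOX1. In 1-1 KO they differed, since GCLC was lower and neither NQO1 nor HMOX1 passed the test. The flanks of the elements differed between the genes as shown.

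In 1-1 KO compared to WT, NFE2L2 and KEAP1 rose while 4 targets fell. These were GCLC and GCLM, the catalytic and modifier subunits of the enzyme that begins glutathione synthesis, TXNRD1, the cytosolic thioredoxin reductase, and SRXN1, which repairs oxidized peroxiredoxins. NQO1, HMOX1 and SLC7A11 did not pass the test. Of the 9 genes, 6 were therefore called, 2 higher and 4 lower (66.7%), while 63.4% of all tested genes were called in this comparison, 32.5% higher and 30.9% lower. The share of the 9 genes is close to this background. Their median log2 fold change was -0.03, and that of all tested genes 0.01. Genes were called at an adjusted p under 0.05 (Benjamini-Hochberg, all tested genes) by the quasi-likelihood test of edgeR. No gene of the 9 passed with a log2 change over 1 in either knockout compared to WT (0 of 9, against 13.4% of all tested genes in 1-1 KO and 11.7% in 1-2 KO).

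In 1-2 KO compared to WT, 5 targets fell and 2 genes rose. NQO1, a quinone reductase, and TXNRD1 had the largest falls of the 9, GCLC, GCLM and the haem oxygenase HMOX1 also fell, and SLC7A11, the cystine transporter subunit, rose together with KEAP1. NFE2L2 and SRXN1 did not pass the test. The 7 called genes (77.8% of the 9) stand against 54.4% of all tested genes called, 28.2% higher and 26.2% lower. The median log2 fold change was -0.18 over the 9 genes and 0.02 over all tested genes. Both comparisons used the same 3 WT libraries.

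When the knockouts were compared directly, 3 of the 9 genes (SRXN1, SLC7A11 and GCLM) were higher in 1-2 KO than in 1-1 KO and 5 (NQO1, NFE2L2, KEAP1, TXNRD1 and HMOX1) were lower. GCLC did not pass the test. SRXN1 alone passed with a log2 change over 1 (1 of 9, against 14.1% of all tested genes), and its change was 0.99 without 1-2 KO replicate 1 and 0.91 with its neighbours' median subtracted. These 8 calls stand against 65.3% of all tested genes called, 33.1% higher and 32.2% lower. The libraries of the lines did not overlap for 6 of the 9 genes in 1-1 KO compared to WT, 7 in 1-2 KO compared to WT and 9 between the knockouts, where 68.9%, 58.4% and 69.8% of all tested genes did not overlap.

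**Figure D2:**
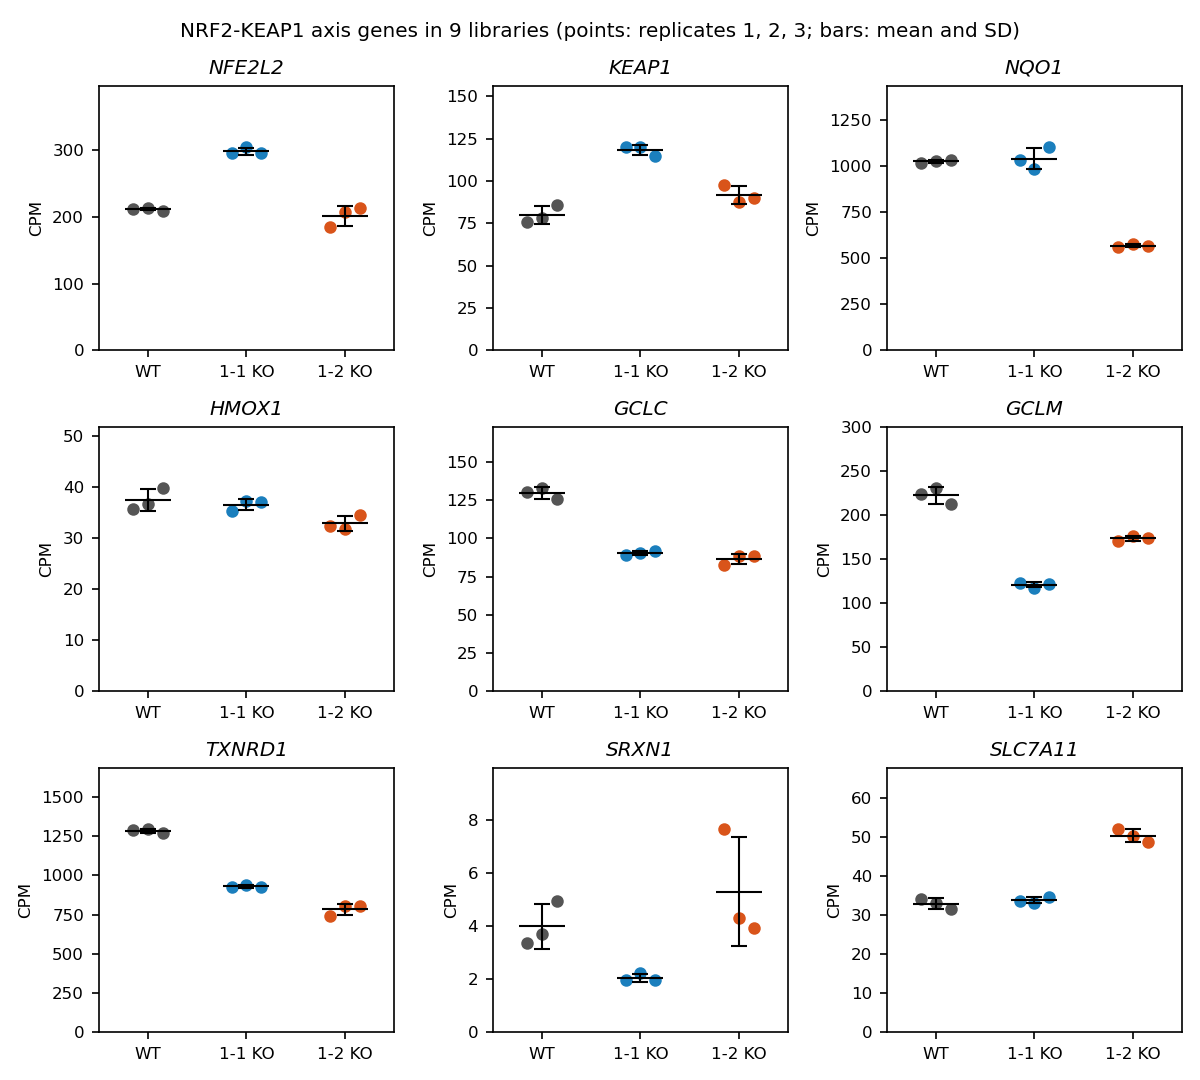
CPM of the 9 genes in each library (points, replicates 1 to 3 from left to right), with the mean and SD of each line as bars; every vertical axis starts at 0. The WT libraries of GCLC, GCLM and TXNRD1 lie above all libraries of both knockouts, those of NQO1 lie above the 1-2 KO libraries, and SLC7A11 is highest in 1-2 KO.

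NFE2L2, which encodes NRF2, was at 212, 213 and 209 CPM in WT, at 295, 304 and 295 CPM in 1-1 KO, and at 184, 206 and 213 CPM in 1-2 KO. All 1-1 KO libraries were above all others, and the 1-2 KO libraries overlapped those of WT. NFE2L2 was 1.41-fold higher in 1-1 KO than in WT (log2 fold change 0.50, standard error (SE) 0.05, adjusted p = 3.66e-07 in edgeR). In 1-2 KO the log2 fold change was -0.07 with a 95% interval from -0.17 to 0.03 (adjusted p = 0.201 in edgeR), and it was -0.01 without 1-2 KO replicate 1 (adjusted p = 0.762). NFE2L2 was 1.48-fold lower in 1-2 KO than in 1-1 KO (adjusted p = 7.22e-08 in edgeR). The gene (ENSG00000116044, chromosome 2, 177218667 to 177392756, GENCODE 44 on GRCh38) overlaps the tested genes AGPS, HNRNPA3 and ENSG00000222043 on the other strand and ENSG00000213963 and DNAJC19P5 on its own strand.

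The genes around NFE2L2 moved with it in 1-1 KO. The median log2 fold change of the 50 nearest tested genes was 0.39 in 1-1 KO and 0.20 in 1-2 KO. With this median subtracted, the rise of NFE2L2 in 1-1 KO no longer passed the test, at 0.11 (adjusted p = 0.0613 in edgeR), and in 1-2 KO NFE2L2 was lower, at -0.28 (adjusted p = 1.75e-04 in edgeR). Its difference between the knockouts was -0.38 after the subtraction and still passed. A change of a chromosome segment between the lines and a change of the gene alone cannot be told apart by this subtraction.

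KEAP1, the adaptor that presents NRF2 to the CUL3 ligase, was at 76.0, 78.3 and 86.0 CPM in WT, at 120.1, 119.8 and 115 CPM in 1-1 KO, and at 98.0, 87.6 and 90.1 CPM in 1-2 KO. The 3 lines did not overlap, with 1-1 KO highest and WT lowest. KEAP1 rose 1.48-fold in 1-1 KO (log2 fold change 0.56, SE 0.05, adjusted p = 2.75e-07 in edgeR) and, to a smaller extent, in 1-2 KO (log2 fold change 0.20, SE 0.05, adjusted p = 4.37e-03). Its neighbours on chromosome 19 had medians of 0.38 and 0.21. With these subtracted, KEAP1 stayed higher in 1-1 KO at 0.18 (adjusted p = 7.31e-03), and its value in 1-2 KO was -0.01 (adjusted p = 0.917 in edgeR). The gene (ENSG00000079999) lies from 10486125 to 10503558.

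GCLM and GCLC were lower in both knockouts, but the fall of GCLM in 1-2 KO was lost with its neighbours' median subtracted. GCLM was at 224, 231 and 212 CPM in WT, at 123, 118 and 122 CPM in 1-1 KO, and at 171, 176 and 174 CPM in 1-2 KO, so that the 3 lines were fully apart. It fell 1.84-fold in 1-1 KO (log2 fold change -0.88, SE 0.04, adjusted p = 1.39e-10 in edgeR), a change larger than that of 82.9% of tested genes. In 1-2 KO it fell 1.28-fold (log2 fold change -0.36, adjusted p = 1.67e-06 in edgeR), and it was 1.43-fold higher in 1-2 KO than in 1-1 KO (adjusted p = 2.20e-08). The 50 neighbours of GCLM (ENSG00000023909, chromosome 1, 93885199 to 93909456) had medians of -0.13 in 1-1 KO and -0.38 in 1-2 KO. With these subtracted, the fall in 1-1 KO was -0.75, and the value in 1-2 KO was 0.02 (adjusted p = 0.677 in edgeR).

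GCLC was at 130, 133 and 126 CPM in WT, at 89.2, 90.5 and 91.6 CPM in 1-1 KO, and at 82.5, 88.3 and 88.2 CPM in 1-2 KO. The WT libraries were above all others, and the knockouts lay next to each other without overlap. GCLC was 1.43-fold lower in 1-1 KO (log2 fold change -0.52, SE 0.04, adjusted p = 2.69e-08 by edgeR). In 1-2 KO it was lower by a log2 fold change of -0.59 (SE 0.04, adjusted p = 1.03e-08). The difference between the knockouts was -0.07 with a 95% interval from -0.15 to 0.01 (adjusted p = 0.132 in edgeR), and -0.04 without 1-2 KO replicate 1. It passed the test without WT replicate 3 (-0.09, adjusted p = 0.0255), with 10 counts in every library (adjusted p = 0.0325) and with only these lines in the fit (adjusted p = 0.0288). Its neighbours on chromosome 6 had medians of -0.04 in 1-1 KO and -0.42 in 1-2 KO. With these subtracted, GCLC was still lower in both, at -0.47 and -0.17 (adjusted p = 1.56e-03 in 1-2 KO, edgeR). The difference between the knockouts then turned to 0.30, with GCLC higher in 1-2 KO (adjusted p = 7.8e-06 in edgeR). The gene (ENSG00000001084) lies from 53497341 to 53616970.

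SLC7A11, the light chain of the cystine and glutamate exchanger that supplies cysteine for glutathione, was at 34.2, 33.1 and 31.5 CPM in WT, at 33.7, 33.1 and 34.7 CPM in 1-1 KO, and at 52.0, 50.2 and 48.6 CPM in 1-2 KO. The 1-2 KO libraries were above all others, and WT and 1-1 KO overlapped. SLC7A11 rose 1.53-fold in 1-2 KO compared to WT (log2 fold change 0.61, SE 0.05, adjusted p = 6.31e-08 in edgeR), with a neighbours' median of 0.02 on chromosome 4. In 1-1 KO the log2 fold change was 0.04 with a 95% interval from -0.06 to 0.14 (adjusted p = 0.501). There the neighbours had a median of 0.39, and with it subtracted SLC7A11 was lower, at -0.36 (adjusted p = 1.75e-05 in edgeR). The gene (ENSG00000151012) lies from 138164097 to 138242349.

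SLC7A11 is also a target of ATF4, the transcription factor of the amino acid response, and that response was examined with a list of 17 genes. In 1-2 KO compared to WT, 14 of the 17 rose, 1 fell and 2 did not pass the test, and the list's median was 0.33 on the log2 scale. In 1-1 KO, 6 rose and 7 fell, with a median of -0.06. Over all tested genes, 28.2% were higher and 26.2% lower in 1-2 KO, and 32.5% and 30.9% in 1-1 KO. ATF4 itself was at 418 ± 16.1 CPM in WT, 356 ± 8.98 CPM in 1-1 KO and 512 ± 19.9 CPM in 1-2 KO (SD, n = 3 libraries), and passed the test in each comparison (adjusted p = 1.63e-04, 2.51e-05 and 4.12e-08 in edgeR, the last between the knockouts). PHGDH, an enzyme of serine synthesis, was 1.91-fold (1-1 KO) and 1.65-fold (1-2 KO) higher than in WT. SLC7A5, an amino acid transporter, was lower in 1-1 KO (1.43-fold) but higher in 1-2 KO (1.36-fold).

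TXNRD1, the reductase that keeps cytosolic thioredoxin active, was at 1286, 1294 and 1266 CPM in WT, at 926, 937 and 923 CPM in 1-1 KO, and at 743, 802 and 802 CPM in 1-2 KO. The 3 lines did not overlap, with WT highest and 1-2 KO lowest. TXNRD1 fell 1.38-fold in 1-1 KO (log2 fold change -0.47, SE 0.04, adjusted p = 6.34e-08 in edgeR) and 1.64-fold in 1-2 KO (-0.71, SE 0.04, adjusted p = 1.02e-09). It was also 1.19-fold lower in 1-2 KO than in 1-1 KO (adjusted p = 3.31e-05). The neighbours on chromosome 12 had medians of -0.23 and -0.27, and TXNRD1 was lower in both knockouts with these subtracted, at -0.24 and -0.44. The gene (ENSG00000198431) lies from 104215779 to 104350307 and overlaps the tested pseudogene RPL18AP3.

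SRXN1, sulfiredoxin, had the fewest counts of the 9 genes and was the most variable. It overlaps the protein-coding gene ENSG00000270299 on its own strand, which was not tested, so that the counts of SRXN1 are uncertain. Its counts were 133, 138 and 156 in WT, 84, 92 and 80 in 1-1 KO, and 322, 171 and 157 in 1-2 KO. As CPM these were 3.34, 3.68 and 4.95 in WT, 1.99, 2.24 and 1.96 in 1-1 KO, and 7.64, 4.29 and 3.92 in 1-2 KO. The 1-1 KO libraries were below all others, and 1-2 KO overlapped WT. SRXN1 fell 1.92-fold in 1-1 KO (log2 fold change -0.94, SE 0.24, adjusted p = 3.51e-03 in edgeR). It was 2.57-fold higher in 1-2 KO than in 1-1 KO (log2 fold change 1.36, SE 0.23, adjusted p = 1.27e-04), a change larger than that of 91.1% of tested genes. Without 1-2 KO replicate 1 this difference was 0.99 on the log2 scale and passed the test (adjusted p = 5.83e-05 in edgeR). Against WT, the log2 fold change in 1-2 KO was 0.42 with a 95% interval from -0.05 to 0.89 (adjusted p = 0.118 in edgeR). This was 0.06 without 1-2 KO replicate 1 (adjusted p = 0.774) and 0.60 without 1-2 KO replicate 3 (adjusted p = 0.0298). SRXN1 (ENSG00000271303) lies on chromosome 20 from 646615 to 653200, where the neighbours' median was -0.32 in 1-1 KO and 0.13 in 1-2 KO, and its fall in 1-1 KO was -0.62 with that median subtracted (adjusted p = 0.0392 in edgeR).

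NQO1, which reduces quinones and is widely used as a readout of NRF2, was at 1018, 1028 and 1032 CPM in WT, at 1033, 987 and 1104 CPM in 1-1 KO, and at 564, 577 and 564 CPM in 1-2 KO. The 1-2 KO libraries were below all others, and WT and 1-1 KO overlapped. NQO1 fell 1.81-fold in 1-2 KO compared to WT (log2 fold change -0.85, SE 0.04, adjusted p = 4.24e-10 in edgeR), a change larger than that of 85% of tested genes. It was also 1.83-fold lower in 1-2 KO than in 1-1 KO (adjusted p = 1.85e-10). In 1-1 KO compared to WT the log2 fold change was 0.02 with a 95% interval from -0.06 to 0.11 (adjusted p = 0.659 in edgeR). The neighbours on chromosome 16 had medians of 0.27 in 1-1 KO and -0.22 in 1-2 KO. With these subtracted, NQO1 was lower in both, at -0.24 (adjusted p = 1.17e-04) and -0.63 (adjusted p = 1.10e-08 in edgeR). The gene (ENSG00000181019) lies from 69706996 to 69726668.

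HMOX1, which degrades haem and releases iron, was at 35.7, 36.8 and 39.8 CPM in WT, at 35.4, 37.4 and 37.1 CPM in 1-1 KO, and at 32.3, 31.8 and 34.6 CPM in 1-2 KO. The 1-2 KO libraries were below all others by a small margin, and the other lines overlapped. HMOX1 fell 1.14-fold in 1-2 KO compared to WT (log2 fold change -0.18, SE 0.05, adjusted p = 8.77e-03 in edgeR). In 1-1 KO the log2 fold change was -0.03 with a 95% interval from -0.14 to 0.08 (adjusted p = 0.618), and its sign turned with scaling by library size alone (0.02). The difference of -0.15 between the knockouts (adjusted p = 0.0197) did not pass without 1-1 KO replicate 2 (adjusted p = 0.067), 1-1 KO replicate 3 (adjusted p = 0.0587) or 1-2 KO replicate 2 (adjusted p = 0.0758, each in edgeR). The gene (ENSG00000100292) lies on chromosome 22 from 35380361 to 35394214, where the neighbours' median was -0.05 in 1-1 KO and 0.15 in 1-2 KO, and the fall in 1-2 KO was -0.34 with that median subtracted (adjusted p = 9.92e-05 in edgeR).

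**Figure D3:**
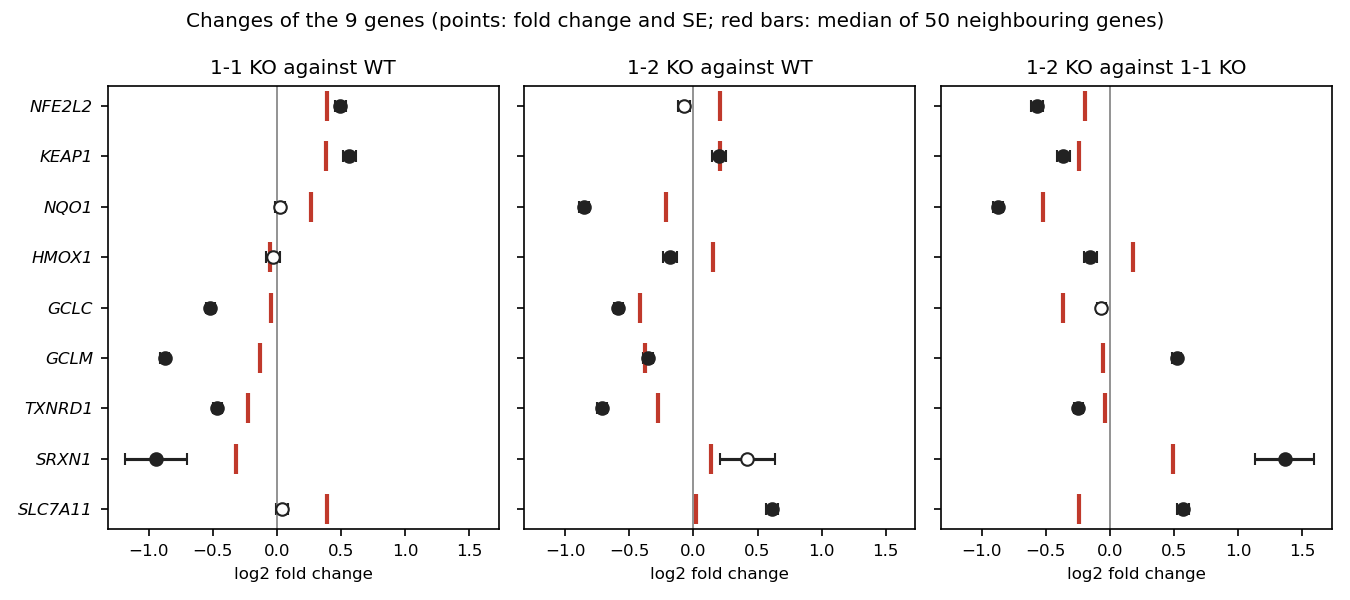
Log2 fold change with its SE for the 9 genes in the 3 comparisons (filled points: adjusted p under 0.05, open points: not passed), and the median log2 fold change of the 50 neighbouring tested genes as a red bar. In 1-1 KO the values of NFE2L2 (0.50) and KEAP1 (0.56) lie above the bars of their neighbours (0.39 and 0.38), by 0.11 and 0.18. GCLM (-0.88) lies far from its own bar (-0.13).

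The levels of the 9 genes spanned a wide range. Per kilobase of the union of annotated exons (RPKM), the order in WT was NQO1 at 345, TXNRD1 at 191, GCLM at 41.0, KEAP1 at 22.4, HMOX1 at 16.2, GCLC at 15, NFE2L2 at 14.1, SLC7A11 at 3.41 and SRXN1 at 1.58 RPKM. HMOX1 (SD 0.925) and GCLC (SD 0.429) lay close together, and their order turned with the canonical length used below. The union for NFE2L2 was 14975 bases, and its canonical transcript is 2446 bases long. With the length of the canonical transcript, chosen with the data in view, NFE2L2 was at 86.4 RPKM in WT and came after NQO1 at 407 and TXNRD1 at 332 RPKM. With this length GCLM was at 45.5, GCLC at 34.2, KEAP1 at 31.2 and HMOX1 at 24.1 RPKM. In 1-2 KO, where NQO1 was at 191 RPKM by the union of exons and TXNRD1 at 117 RPKM, these were still the highest of the 9.

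Genes that control NRF2 were examined with a list of 20 genes, of which 7 were called higher and 9 lower in 1-1 KO. In 1-2 KO 7 of these were called higher and 5 lower. These shares, 80% and 60% called, compare with 63.4% and 54.4% of all tested genes, and the latter pair is close. The list's median was -0.08 on the log2 scale for 1-1 KO and 0.06 for 1-2 KO. SQSTM1, which encodes p62, was at 379, 371 and 395 CPM in WT, at 304, 307 and 302 CPM in 1-1 KO, and at 389, 294 and 314 CPM in 1-2 KO. It fell 1.25-fold in 1-1 KO (log2 fold change -0.33, SE 0.07, adjusted p = 1.66e-03 in edgeR), where its neighbours on chromosome 5 had a median of -0.34. With this median subtracted the value was 0.02 (adjusted p = 0.848). In 1-2 KO the log2 fold change of SQSTM1 was -0.20 (adjusted p = 0.0375 in edgeR) and -0.33 (adjusted p = 2.29e-06) without 1-2 KO replicate 1. Its neighbours had a median of 0.16 there, and with this subtracted the value was -0.36 (adjusted p = 1.16e-03). Without this subtraction, the call was lost when any library other than 1-1 KO replicate 3 and 1-2 KO replicate 1 was left out. It was also lost by DESeq2's Wald test (adjusted p = 0.106).

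BACH1, a repressor that competes with NRF2 for the response elements, was at 55.5 ± 2.09 CPM in WT, 93.4 ± 0.567 CPM in 1-1 KO and 59.2 ± 2.04 CPM in 1-2 KO (SD, n = 3 libraries). It rose 1.68-fold in 1-1 KO (log2 fold change 0.75, SE 0.04, adjusted p = 1.04e-09 in edgeR), and the rise was 0.48 with the neighbours' median of 0.27 on chromosome 21 subtracted. In 1-2 KO its log2 fold change of 0.09 did not pass (adjusted p = 0.0627 in edgeR). It passed with scaling by library size alone (0.15, adjusted p = 4.15e-03), with 10 counts in every library (0.09, adjusted p = 0.0408) and with its neighbours' median subtracted (0.14, adjusted p = 9.85e-03). It also passed without WT replicate 2 (0.12, adjusted p = 0.0307) and without 1-2 KO replicate 1 (0.12, adjusted p = 0.0279, each in edgeR). CUL3, the scaffold of the ligase, fell 1.17-fold in 1-1 KO (adjusted p = 4.02e-05 in edgeR), was at -0.04 (adjusted p = 0.28) with its neighbours' median subtracted, and had a log2 fold change of 0.02 in 1-2 KO (adjusted p = 0.649), which passed with scaling by library size alone (0.07, adjusted p = 0.0472). CAND1, which exchanges the adaptors of cullin ligases, was lower in both knockouts, by log2 fold changes of -0.30 (1-1 KO) and -0.31 (1-2 KO), the latter -0.10 with its neighbours' median subtracted (adjusted p = 0.0235 in edgeR).

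Among 25 genes for quinone, carbonyl and conjugation reactions and export, most of which are known NRF2 targets, 24 were tested. Of these, 18 fell, 2 rose and 4 did not pass in 1-2 KO, with a list median of -0.56 on the log2 scale against 0.02 over all tested genes. In 1-1 KO, 14 fell, 4 rose and 6 did not pass, with a median of -0.24 against 0.01. The called shares were 83.3% in 1-2 KO and 75% in 1-1 KO, where 54.4% and 63.4% of all tested genes were called. AKR1B10, an aldo-keto reductase of liver tumours, fell from 29.4 ± 0.879 CPM in WT to 1.94 ± 0.312 CPM in 1-1 KO and 4.63 ± 0.749 CPM in 1-2 KO (SD, n = 3 libraries), or 15.2-fold and 6.35-fold (adjusted p = 3.36e-12 and 5.78e-11 in edgeR). AKR1C1 was 4.85-fold lower in 1-2 KO and 1.44-fold lower in 1-1 KO. Its neighbours on chromosome 10 had medians of -0.79 and -0.73, and with these subtracted AKR1C1 was higher in 1-1 KO, at 0.20 (adjusted p = 5.40e-04), and still lower in 1-2 KO, at -1.49. AKR1C1 shares nearly identical sequence with its paralogs, so that its counts are uncertain.

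In the list of glutathione genes, 10 of 18 were higher and 3 lower in 1-1 KO (median 0.32 on the log2 scale), whereas 4 were higher and 7 lower in 1-2 KO (median -0.07). The called shares of 72.2% and 61.1% stand beside 63.4% and 54.4% of all tested genes. GSS, which completes glutathione synthesis and was named after its values were seen, had a log2 fold change of -0.07 in 1-1 KO (adjusted p = 0.0973 in edgeR) and was lower in 1-2 KO (-0.19, adjusted p = 3.19e-04). GPX2, a glutathione peroxidase, rose from 18.0 ± 0.469 to 68.6 ± 2.44 CPM in 1-1 KO and fell to 14.8 ± 0.776 CPM in 1-2 KO (SD, n = 3 libraries), with log2 fold changes of 1.93 and -0.29 (adjusted p = 1.30e-12 and 4.74e-04 in edgeR). CHAC1, which degrades glutathione and is a target of ATF4, rose 1.42-fold in 1-1 KO. In 1-2 KO it was at 18.5 ± 0.345 CPM against 3.79 ± 0.463 CPM in WT, 4.89-fold higher (adjusted p = 3.90e-11 in edgeR). The list of 17 thioredoxin, peroxiredoxin and methionine sulfoxide reductase genes had 4 that rose and 10 that fell in 1-1 KO, and 3 and 7 in 1-2 KO, with medians of -0.21 and -0.04. The called shares were 82.4% and 58.8%, the latter close to the 54.4% of all tested genes. PRDX3, the mitochondrial peroxiredoxin, had log2 fold changes of -0.50 and -0.59 in the knockouts and passed in both, also with its neighbours' median subtracted (-0.22 and -0.35). MSRB3, a methionine sulfoxide reductase, fell 3.53-fold in 1-1 KO and was at -0.04 on the log2 scale in 1-2 KO (adjusted p = 0.521 in edgeR), a value whose sign turned with scaling by library size alone (0.02).

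NADPH powers both the glutathione and the thioredoxin system. Of 11 genes of NADPH supply, 3 were called higher and 6 lower in 1-1 KO, 2 higher and 6 lower in 1-2 KO, with medians of -0.14 and -0.21. These are 81.8% and 72.7% called, against 63.4% and 54.4% of all tested genes. ME1, malic enzyme, fell from 316 ± 7.80 CPM in WT to 157 ± 1.27 CPM in 1-1 KO and 161 ± 8.07 CPM in 1-2 KO (SD, n = 3 libraries), or 2.01-fold and 1.97-fold (adjusted p = 5.43e-11 and 8.35e-11 in edgeR). Its neighbours had medians of -0.08 and -0.07. IDH1, a cytosolic isocitrate dehydrogenase, was 1.58-fold higher in 1-1 KO, whereas it was 1.17-fold lower in 1-2 KO. With its neighbours' median subtracted, the log2 fold changes of IDH1 were 0.34 and -0.36, in place of 0.66 and -0.23, and both passed.

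Of 9 genes of haem breakdown and iron handling, 3 were called higher and 3 lower in 1-1 KO, 2 higher and 3 lower in 1-2 KO, with medians of -0.04 and -0.07. These shares of 66.7% and 55.6% are near those of all tested genes, 63.4% and 54.4%. SLC48A1, a haem transporter, rose in both (1.76-fold in 1-1 KO, 2.66-fold in 1-2 KO). The iron exporter gene SLC40A1 also rose in both, with log2 fold changes of 0.88 and 0.26, or 0.43 and 0.18 with its neighbours' median subtracted. ALAS1, which begins haem synthesis, fell 1.58-fold in 1-1 KO and was at 0.04 on the log2 scale in 1-2 KO (adjusted p = 0.497 in edgeR). Of the 5 genes of superoxide and peroxide removal, 4 were tested, and SOD2 was not analysed here. In 1-1 KO 3 rose and 0 fell, while 2 rose and 2 fell in 1-2 KO, with medians of 0.26 and -0.01, where 63.4% and 54.4% of all tested genes were called. Catalase (CAT) fell 1.26-fold in 1-2 KO, and SOD1 was higher in 1-1 KO (1.16-fold) but lower in 1-2 KO (1.08-fold, a call that was lost with scaling by library size alone, adjusted p = 0.115). With the neighbours' median of 0.27 subtracted, SOD1 was at -0.06 in 1-1 KO (adjusted p = 0.121 in edgeR), and in 1-2 KO it was then also at -0.06 (adjusted p = 0.163). The copper chaperone gene CCS rose 1.23-fold in 1-1 KO. Its log2 fold change of 0.10 in 1-2 KO (adjusted p = 0.0427 in edgeR) no longer passed when any library other than WT replicate 1 and 1-2 KO replicate 3 was left out, or by DESeq2's Wald test (adjusted p = 0.147).

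**Figure D4:**
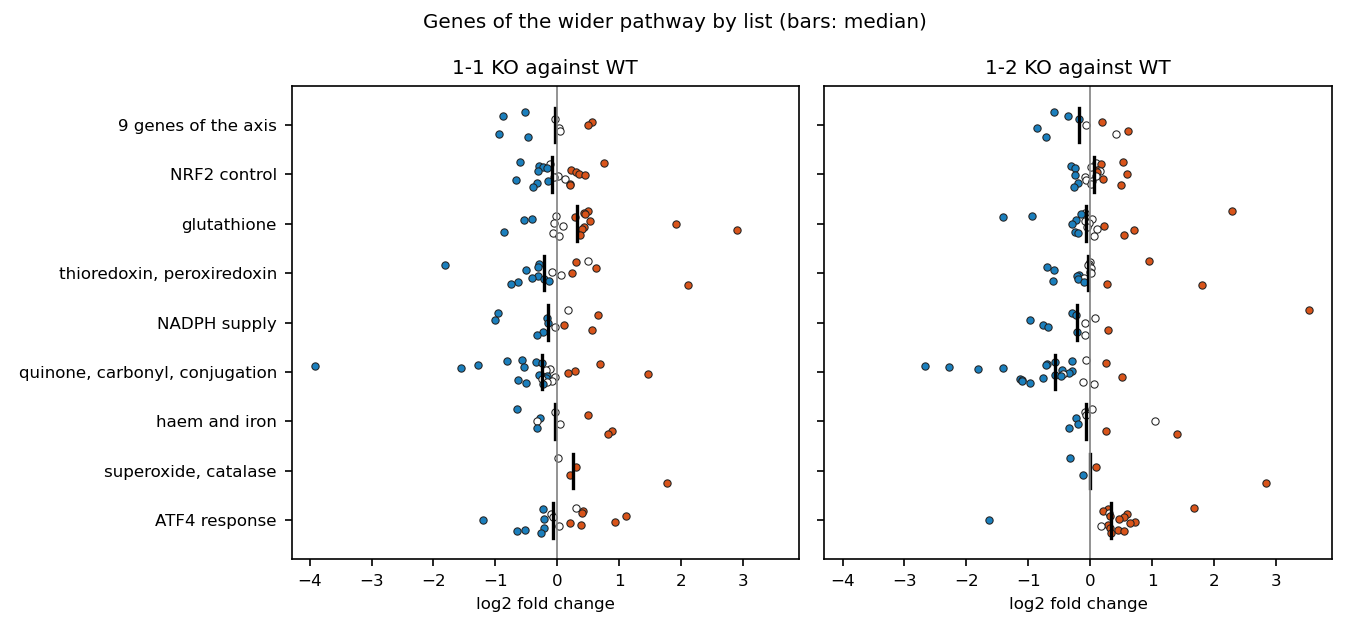
Log2 fold change of each tested gene of the 9 genes of the axis and of the 8 lists, for each knockout compared to WT (orange: passed and higher, blue: passed and lower, white: not passed), with the median of each list as a black bar. The quinone, carbonyl and conjugation list has its median left of 0 in both knockouts (-0.24 and -0.56), and the ATF4 list has its median right of 0 in 1-2 KO (0.33).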

How the data were processed

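Stranded mRNA libraries were sequenced from 3 Huh-7 lines (WT and the knockouts of vtRNA1-1 and vtRNA1-2), with 3 libraries per line. Per the study's methods, the authors aligned paired reads to hg38 with STAR and counted them with featureCounts, and the deposited values are raw read counts per gene. Tool versions, the use of strand and the treatment of reads with several matches are not given in the sources used here. Reads of overlapping genes may therefore be shared or left uncounted. Exon lengths and overlaps given here are those of GENCODE 44 and may differ from the annotation with which the authors counted. The table held 60664 genes, of which 60463 had a symbol in GENCODE 44 (GRCh38) and the other 201 held 0.0192% of the counts.

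Counts were tested in R 4.3.3 with edgeR 4.0.16 (TMM, filterByExpr with a minimum count of 10, quasi-likelihood test, all 9 libraries in 1 fit with a term per line), with Benjamini-Hochberg adjustment over 17207 genes and a threshold of 0.05. DESeq2 1.42.0 was an alternative. The biological coefficient of variation was 5.55%. Intervals are at 95%. The alternatives were DESeq2's size factors, library size alone, no filter, 10 counts in every library, DESeq2's Wald test, only the 2 lines compared, a replicate block, an adjusted p under 0.01, subtraction of the median log2 fold change of the 50 neighbouring tested genes as an offset, and each library left out in turn.

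The 9 genes and the lists were chosen with earlier results of these data known. The text names the 9 genes, the gene with the smallest adjusted p of each list and comparison at a mean of at least 1 CPM, SQSTM1, CUL3, BACH1 and ATF4, for each of the 9 the protein-coding genes most like it, and FTH1, FTL, GSS and LYZ, which were added after their values were seen.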

Additional observations from a re-analysis of the deposited data

How the results depend on the processing

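Each of the 27 values (9 genes, 3 comparisons) was recomputed under 18 alternatives, and 466 of the 486 results kept their direction and side of the threshold. The count of the 9 genes called stayed within 1.5 times except with the neighbours' median subtracted, which left 1 gene called higher in 1-1 KO and 1 in 1-2 KO compared to WT, in place of 2 each. With single libraries left out, 6 genes were called in 1-1 KO, 7 to 8 in 1-2 KO and 7 to 9 between the knockouts. With a replicate block, 6, 7 and 8 of the 9 genes and 10596, 8986 and 10923 of all tested genes were called in the 3 comparisons, and no call among the 9 genes changed. The replicate numbers do not pair the libraries, since the deviations of libraries with the same number correlated between -0.152 and 0.0372. The cause of the shifts below was not tested.

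Subtraction of the neighbours' median reversed NQO1 (-0.244), HMOX1 (0.0211), SLC7A11 (-0.355), AKR1C1 (0.201), SOD1 (-0.0631), CAT (-0.0591) and SQSTM1 (0.0189) in 1-1 KO, KEAP1 (-0.00751), GCLM (0.0202), ALAS1 (-0.120), CCS (-0.0423) and MSRB3 (0.116) in 1-2 KO, and GCLC (0.304), CAND1 (0.104), SOD1 (0.00514) and SQSTM1 (-0.375) between the knockouts. Library size alone reversed HMOX1 in 1-1 KO (0.0188) and MSRB3 in 1-2 KO (0.0166). CAT in 1-1 KO was reversed by DESeq2's size factors (-0.00531), no filter (-0.00942) and DESeq2's Wald test (-0.00942). With single libraries left out, the sign turned in 1-1 KO for NQO1 (-0.0225 to 0.0591), HMOX1 (-0.0669 to 0.0163) and CAT (-0.00431 to 0.0180), in 1-2 KO for ALAS1 (-0.00465 to 0.0703), CUL3 (-0.00741 to 0.0464) and FTH1 (-0.132 to 1.40), and between the knockouts for CAND1 (-0.0359 to 0.0111) and SQSTM1 (-0.00107 to 0.210). Without 1-2 KO replicate 1, FTH1 was at -0.132 in 1-2 KO compared to WT. Precision was lowest for SRXN1, with 80 to 322 counts per library.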

Other observations

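For each of the 9 genes, protein-coding genes that were tested and averaged 1 CPM or more were ranked by the Pearson correlation of their log2 CPM over the 9 libraries. These values describe the pattern over 3 lines, because the libraries of a line lie close together, and many genes share such a pattern. VAPB (r = 0.9987) and MMADHC (0.9960) were most like NFE2L2, and 1294 of 11977 genes had r above 0.9 with it. KEAP1 was closest to REEP6 (0.9989) and FAAP100 (0.9938), NQO1 to CD9 (0.9975) and DAZAP2 (0.9968), and GCLM to CHML (0.9984) and G2E3 (0.9977). GCLC was closest to CAP1 (0.9976) and CDK7 (0.9969), TXNRD1 to PAK2 (0.9963) and HBS1L (0.9960), SLC7A11 to GPRIN3 (0.9939) and AUTS2 (0.9924), and SRXN1 to UBALD1 (0.9887) and SHROOM1 (0.9873). HMOX1 had r above 0.9 with 14 genes, the closest being SPRY4 (0.9700) and SLC25A38 (0.9552). Its lines differed little, with log2 fold changes of -0.03 (1-1 KO), -0.18 (1-2 KO) and -0.15 (between the knockouts). The part of these small differences in its correlations was not tested.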
